A study of Mus musculus with 4 samples.

Results

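The Th2 cytokine locus is a stretch of mouse chromosome 11 that carries the genes of interleukin-4, interleukin-13 and interleukin-5 side by side. Its members were taken by name and position, and are 7 of the 50600 genes in the deposited count tables: Il4, Il13, Il5, Gm12214, Rad50, Kif3a and Irf1. Each member was also compared with any gene on the other strand whose exons share bases with it, which added 1 feature, Gm17334, opposite Irf1.

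T-helper 2 cells are CD4 T cells that drive type 2 immunity, and the interleukins of this locus carry out much of that work. Interleukin-4 acts through STAT6 on B cells and on T cells themselves, interleukin-13 acts on epithelium and smooth muscle, and interleukin-5 sustains eosinophils. In Th2 cells the cytokine genes are opened together under the transcription factor GATA3, with a locus control region that lies within the Rad50 gene, and NFAT factors switch them on after T cell receptor signalling.

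Fragments of RNA were counted in 4 libraries of primary Th2 cells from C57BL/6NJ mice, numbered as biological replicates 1 to 4. The series has this single group, with no treatment, no control and no other cell type, so every comparison here is between genes within a library or between the replicates. Age and sex were not recorded, the protocols linked to the samples are named for poly(A) RNA libraries and for the differentiation of CD4 T cells, and paths in the table headers carry a time of 24 hours that the labels lack. All 4 libraries point to 1 donor record, and nothing states that they are separate animals or cultures, so p-values measure how these particular samples scatter, and that scatter may be technical.

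The tables held 1804217 to 2711948 counts per library, in 12398 to 14083 genes. Counting was done on 1 strand, with the strand option set to 1. Of the counts, 93.8% ± 1.65 (SD, n = 4) lay in 8189 genes with exon bases that an exon of the opposite strand also covers. Those genes are 16.2% of all 50600. A value below is therefore the count of a gene on the strand that was selected, and is not read as that gene's expression. The sources used here do not say which strand the library kit marks. If the kit marked the strand opposite to the option, counts of Gm12214 and Gm17334 in shared bases would be fragments of Il5 and Irf1. Counts of Il4, Il13, Rad50 and Kif3a, which have no shared bases, would then also come from the strand opposite to the gene. Which case holds was not tested. Among markers of the labelled cell type, Cd4 had 56, 67, 71 and 20 counts in replicates 1 to 4, and 5 T cell genes summed had between 38 and 163, lowest in replicate 4. Summed per library, markers of CD8 T cells had 3 or 4 counts, all of Cd8b1, those of B cells 9 to 15, all of Cd79a, and those of eosinophils 1 to 5, all of Epx. Markers of mast cells and basophils had 0 to 7, all of Cpa3, those of ILC2 8 to 16, nearly all of Il7r, those of Th1 cells 0 or 1, of Ifng with Tbx21 at 0, and those of Th17 cells 1 to 3. Foxp3, the regulatory T cell factor gene, had between 601 and 730 counts and shares 590 exon bases with the other strand.

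The locus spans Kif3a to Irf1 in the order Kif3a, Il4, Il13, Rad50, Il5, Gm12214, Irf1 (mm10). Kif3a lies on the plus strand at chr11:53567379-53601967 with 20 merged exons, and Il4 follows on the minus strand at chr11:53602982-53618669 with 7. Il13 is on the minus strand at chr11:53631324-53634702 with 4 exons, and Rad50 on the minus strand at chr11:53649519-53707319 with 25. Il5 is on the plus strand at chr11:53720794-53725106 with 4 exons. Gm12214, annotated as an antisense gene, lies on the minus strand within the span of Il5 at chr11:53723953-53724618, with 2 exons. Irf1 is on the plus strand at chr11:53770014-53778374 with 12 exons. Gm17334, annotated as protein-coding with 1 exon, lies on the minus strand at chr11:53772281-53773187, inside the span of Irf1. The gap from the last base of Kif3a to the nearest exon base of Il4 in these tables is 1014 bases. That base is the end of the minus-strand gene Il4, not its start. Between Il4 and Il13 lie 12654 bases.

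Exon bases were shared at 2 places. All 417 exon bases of Gm12214 fall in exons of Il5, where they make up 27.1% of the Il5 exon length, in stretches of 307 and 110 bases. Irf1 and Gm17334 share 135 bases, in stretches of 100 and 35, which are 3.4% of the exons of Irf1 and 14.9% of Gm17334. Il4, Il13, Rad50 and Kif3a share none.

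The shared coding bases are shown because a fragment from them is told apart only by its strand. The first sequence is coding sequence of Irf1 (GENCODE M21 transcript on GRCm38, plus strand), with positions 88 to 187 of the coding sequence in capitals, which are chr11:53772839-53772938 and the 100 bases shared with Gm17334; the lower-case bases are the neighbouring coding bases in the spliced transcript. The second is the same stretch as Gm17334 reads it on the minus strand, where it is bases 250 to 349 of the Gm17334 transcript and lies within its coding sequence. The third is the coding part of the last Il5 exon on the plus strand, chr11:53723916-53724011, with the 59 bases that also lie in Gm12214 in capitals.
Irf1 with shared stretch: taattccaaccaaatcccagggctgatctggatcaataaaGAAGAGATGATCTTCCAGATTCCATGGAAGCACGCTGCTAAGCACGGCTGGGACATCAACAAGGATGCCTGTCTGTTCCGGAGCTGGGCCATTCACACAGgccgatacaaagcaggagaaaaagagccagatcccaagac
Gm17334, same stretch: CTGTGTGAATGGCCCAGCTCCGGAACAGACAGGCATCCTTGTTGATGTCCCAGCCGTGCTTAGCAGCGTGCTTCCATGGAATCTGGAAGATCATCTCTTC
Il5 with shared stretch: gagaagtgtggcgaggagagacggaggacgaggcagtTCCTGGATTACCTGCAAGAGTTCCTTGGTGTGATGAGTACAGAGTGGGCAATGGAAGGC

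Promoters of the 3 cytokine genes are shown because the members are known targets of GATA3 and NFAT. These are the 250 bases before the RefSeq start on GRCm38.p6, each read on the strand of its gene: Il4 from chr11:53618666-53618915 (minus), Il13 from chr11:53634703-53634952 (minus) and Il5 from chr11:53720544-53720793 (plus). Capitals mark matches, on either strand, to the GATA motif, which is the letters GATA with A or T before them and A or G after them. They also mark matches to the core of NFAT sites, which is GGAAA.
Il4 promoter: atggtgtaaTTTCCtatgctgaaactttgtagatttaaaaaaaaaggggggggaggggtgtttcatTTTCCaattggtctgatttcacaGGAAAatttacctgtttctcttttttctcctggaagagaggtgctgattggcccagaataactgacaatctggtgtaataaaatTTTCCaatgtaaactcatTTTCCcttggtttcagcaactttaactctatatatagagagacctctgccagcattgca
Il13 promoter: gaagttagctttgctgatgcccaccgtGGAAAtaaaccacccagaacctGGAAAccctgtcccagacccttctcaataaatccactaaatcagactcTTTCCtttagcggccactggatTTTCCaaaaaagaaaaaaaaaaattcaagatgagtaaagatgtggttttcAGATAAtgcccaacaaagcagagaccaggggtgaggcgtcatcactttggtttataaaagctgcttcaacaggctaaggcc
Il5 promoter: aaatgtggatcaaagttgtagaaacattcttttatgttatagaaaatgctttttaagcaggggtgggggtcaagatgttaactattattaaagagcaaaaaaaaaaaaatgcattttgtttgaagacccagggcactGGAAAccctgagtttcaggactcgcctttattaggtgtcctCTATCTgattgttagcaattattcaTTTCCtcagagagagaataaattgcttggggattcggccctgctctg

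The Il4 window held 0 GATA and 5 GGAAA matches, the Il13 window 1 and 4, and the Il5 window 1 and 2, with no overlap between the motifs. The windows of Irf1 and Kif3a held 0 GATA matches each, with 2 and 1 GGAAA matches. Of 32851 promoter windows of this length, 26.5% held at least 1 GATA match and 55.6% at least 1 GGAAA match. At least 2, 4 and 5 GGAAA matches were in 21.4%, 1.59% and 0.39%, shares worked out after the counts of the members had been seen. A match is a match of letters and no evidence of binding, and Rad50 and Gm12214 had no entry in the promoter table.

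**Figure D1:**
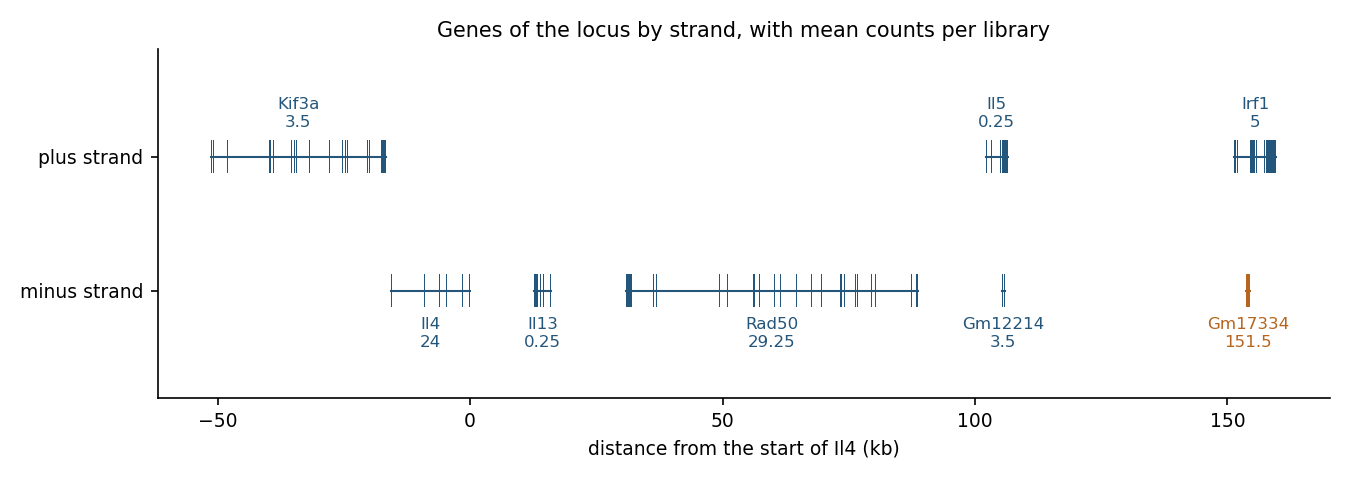
The exons of the 7 genes of the locus (blue) and of Gm17334 (orange) by strand, against the distance in kb from the start of Il4, with the mean count per library (n = 4) under each name. Gm17334 has a mean of 151.5 counts, Rad50 29.25 and Il4 24, and the other members have 5 or fewer.

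Among the cytokine genes, Il4 had counts in every library and Il13 and Il5 had almost none. Il4 had 24, 21, 25 and 26 counts in replicates 1 to 4, which are 13.3, 11.4, 9.22 and 12.0 CPM (counts scaled to a common library total). Scaled by exon length as well, to TPM, the levels were 15.9, 13.6, 12.3 and 14.2, with a mean of 14.0 ± 1.50 (SD, n = 4). The 4 libraries stood close together, with replicate 1 highest and replicate 3 lowest in TPM. Of the 16963 protein-coding genes with no shared exon bases, 98.2% had a lower mean TPM than Il4 and 94.6% a lower mean count, while 50.3% of them had 0 counts throughout. The tables give 1 count per gene, so the counts of Il4 cannot be assigned to any of its exons.

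Il13, next to Il4 on the same strand, had 0, 1, 0 and 0 counts, and Il5 had 0, 0, 0 and 1. The single count of Il13 was in replicate 2 and that of Il5 in replicate 4. A count of 0 allows up to 3 counts, which for Il13 is 1.50 to 2.02 TPM and for Il5 1.18 to 1.59 TPM, depending on the library. Those limits, like the intervals of count ratios given further on, allow for counting error alone.

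Levels were tested against 1 TPM, a fixed level, with the limma moderated one-sample test on log2(TPM + 0.1), fitted to the 17203 genes with a count in any library. Of those, 32.1% were called above 1 TPM and 26.6% below, at an adjusted p under 0.05. Of the 7 members, Il4 and Rad50 were called above, Il13 and Il5 below, and Gm12214, Kif3a and Irf1 were not called, so the members' shares above and below are near those of all genes tested. Il4 was 3.67 ± 0.18 above the level on the log2 scale (SE, n = 4; limma, Benjamini-Hochberg adjusted p = 1.8e-07), and was called above under 13 of 13 alternatives. Il13 was at -2.73 ± 0.62 (limma adjusted p = 0.0053) and Il5 at -2.85 ± 0.55 (limma adjusted p = 0.0021). Both of these rest on 1 count each, and 1 TPM is itself under the limit that a count of 0 allows for both genes, so values on either side of it were not told apart at this depth within 1 library.

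Within each library Il4 was set against the other cytokine genes. The difference of log2(TPM + 0.1), Il4 minus Il13, was 7.32, 4.17, 6.95 and 7.16 in replicates 1 to 4, with a mean of 6.40 ± 1.49 (SD, n = 4). For Il4 minus Il5 it was 7.32, 7.09, 6.95 and 4.74, with a mean of 6.53 ± 1.20 (SD, n = 4). Both differences were above 0 in 4 of 4 libraries, with p = 0.125 for each in a two-sided exact permutation test by sign flips, which cannot give a smaller p with 4 libraries. Smaller values stand where the other gene had its 1 count.

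The size of these differences depends on how zeros are treated. With each zero put at 3 counts in its library, Il4 minus Il13 was 3.26 ± 0.61 and Il4 minus Il5 was 3.58 ± 0.78 (SD, n = 4 each). Over the 4 libraries Il4 had 96 counts and Il13 and Il5 had 1 each. Per exon base, the ratio of Il4 to Il13 was 94.3, with an exact conditional 95% interval of 16.5 to 3762. The ratio of Il4 to Il5 was 120, with an interval of 21.1 to 4799.

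**Figure D2:**
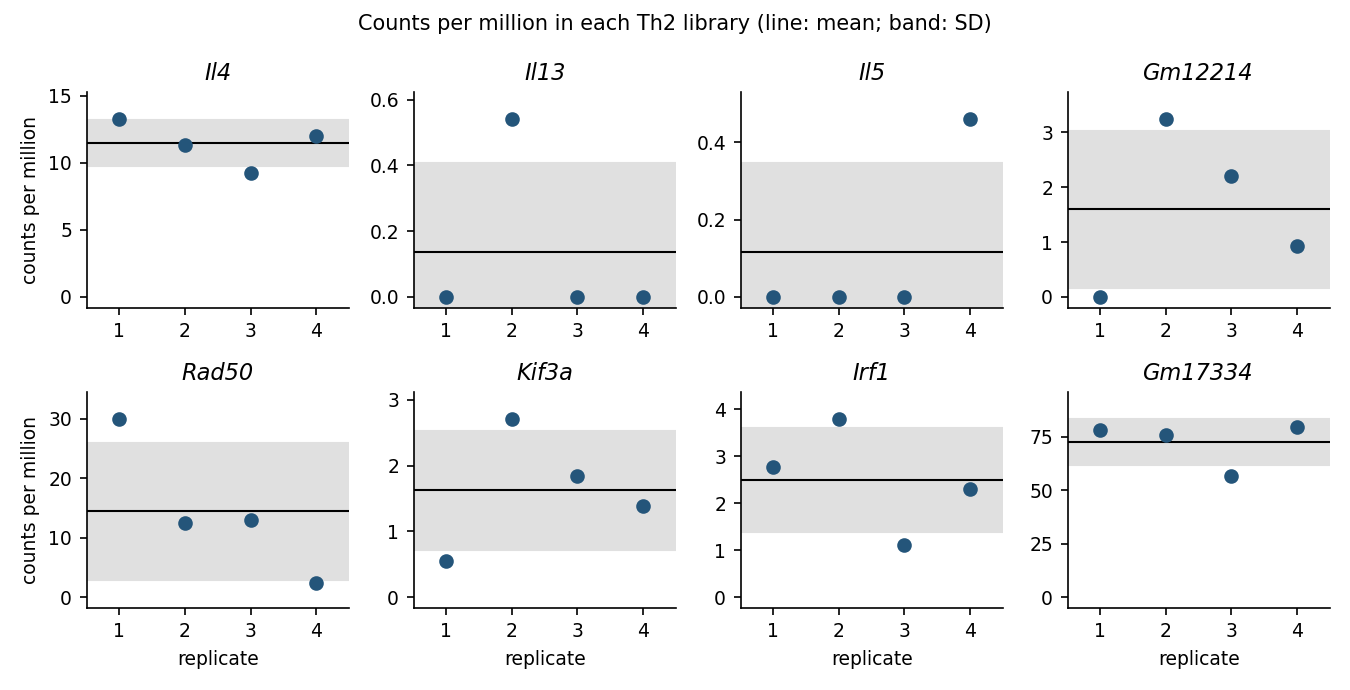
CPM of each gene of the locus and of Gm17334 (each panel has its own vertical axis) in the 4 Th2 libraries, by replicate number; the line is the mean and the grey band 1 SD on each side (n = 4), drawn down to the axis limit where it passes below 0. Il4 lies between 9.22 and 13.3 in all libraries, while Rad50 ranges between 2.30 and 29.9.

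Gm12214, the antisense gene within Il5, had more counts than Il5 in 3 of 4 libraries. Il5 had 0, 0, 0 and 1 counts in replicates 1 to 4, against 0, 6, 6 and 2 counts for Gm12214. In replicate 1 both were at 0. The log2 difference, Il5 minus Gm12214, was 0, -6.85, -6.45 and -2.63, with a mean of -3.98 ± 3.27 (SD, n = 4) and an exact sign-flip permutation p of 0.25, two-sided. With a difference of 0 in replicate 1, the test cannot give a smaller p for this pair.

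Per exon base, the summed counts gave a ratio of Il5 to Gm12214 of 0.0194, from 1 and 14 counts, with an exact conditional 95% interval of 0.00046 to 0.127. Gm12214 had a mean of 5.83 ± 5.16 TPM (SD, n = 4), and 3 counts in it are already 4.34 to 5.84 TPM because its exons are short. Its level was not called against 1 TPM (1.13 on the log2 scale, limma adjusted p = 0.423). Without replicate 1 it was called above, at 2.66 (limma adjusted p = 0.00023); over its alternatives the limma adjusted p ran from 0.00023 to 0.885. Because Gm12214 lies wholly within exons of Il5, a fragment counted for it would have counted for Il5 if its strand were read the other way.

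Irf1, which encodes an interferon-regulated transcription factor that favours Th1 over Th2 responses, had few counts beside the feature on its other strand. Irf1 had 5, 7, 3 and 5 counts in replicates 1 to 4, or 0.929 ± 0.391 TPM (SD, n = 4). Gm17334 had 141, 140, 153 and 172 counts, or 119 ± 12.1 TPM (SD, n = 4). Every library of Irf1 lay far under every library of Gm17334. The log2 difference, Irf1 minus Gm17334, was -6.82, -6.36, -7.52 and -7.08, with a mean of -6.94 ± 0.49 (SD, n = 4) and an exact sign-flip permutation p of 0.125, two-sided.

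Summed over the libraries, Irf1 had 20 counts beside 606 for Gm17334. Per exon base Gm17334 was 133-fold higher than Irf1, with an exact conditional 95% interval of 85.2 to 219. Gm17334 was the feature with the most counts within 200 kb of the locus: the 32 genes there had 912 counts in all. It was called above 1 TPM (6.76 ± 0.12 on the log2 scale, SE; limma adjusted p = 1.0e-10), while Irf1 was not called (-0.18 ± 0.47, limma adjusted p = 0.747). Without replicate 3, in which Irf1 was lowest, the Irf1 value was 0.08. Only 135 of the 907 exon bases of Gm17334 are shared with Irf1 exons. Among the 7553 genes that share at least 50 exon bases, 47.1% had a lower mean TPM than Irf1 and 87.4% a lower one than Gm17334.

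**Figure D3:**
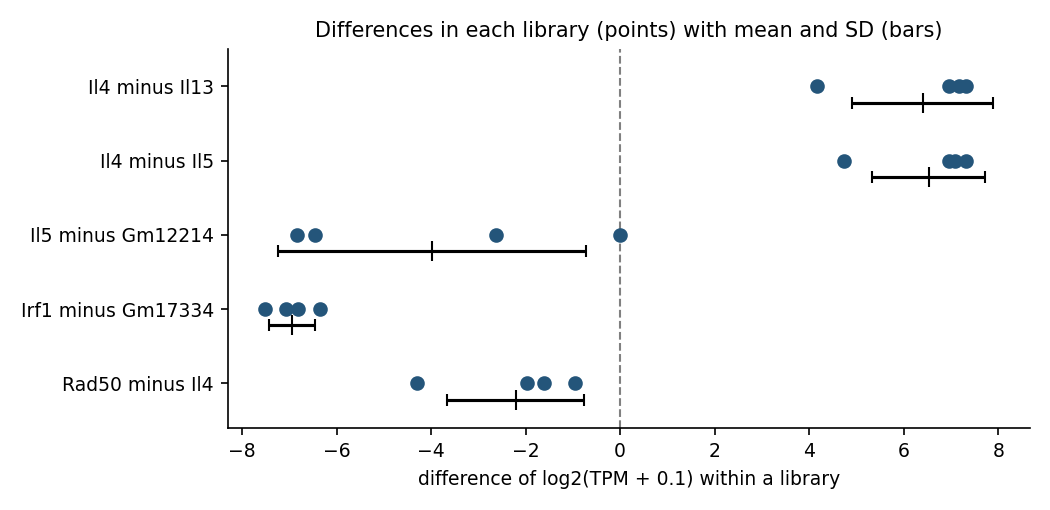
Differences of log2(TPM + 0.1) between 2 genes within each library (points, 4 libraries), with the mean and SD as a bar under the points; the dashed line is no difference. Irf1 minus Gm17334 keeps within -7.52 to -6.36, while Il5 minus Gm12214 runs from -6.85 to 0.

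Rad50, whose protein is the ATPase of the MRE11-RAD50-NBN complex that senses DNA double-strand breaks, varied most in CPM among the members with counts in every library. It had 54, 23, 35 and 5 counts in replicates 1 to 4, which are 29.9, 12.5, 12.9 and 2.30 CPM. In TPM it had 8.16, 3.39, 3.92 and 0.625, with a mean of 4.02 ± 3.11 (SD, n = 4). Replicate 1 was high, replicates 2 and 3 were close to each other, and replicate 4 was low.

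Per exon base, Rad50 was lower than Il4 in each library. The log2 difference in TPM, Rad50 minus Il4, was -0.95, -1.97, -1.62 and -4.31, with a mean of -2.21 ± 1.46 (SD, n = 4) and an exact sign-flip permutation p of 0.125, two-sided. Summed counts were 117 for Rad50 and 96 for Il4, and the ratio per exon base was 0.278, with an exact conditional 95% interval of 0.211 to 0.368. In CPM, without length scaling, Rad50 was above Il4 in replicates 1 to 3 and below it in replicate 4, and the mean log2 difference was -0.14 (exact sign-flip p = 1).

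Rad50 was called above 1 TPM only narrowly, at 1.46 ± 0.54 on the log2 scale (SE, n = 4; limma adjusted p = 0.0465). The call was lost without replicate 1 (0.98, limma adjusted p = 0.197), without replicate 2 (1.39, adjusted p = 0.116) and without replicate 3 (1.32, adjusted p = 0.155). Without replicate 4 the value was 2.15 (limma adjusted p = 0.00016). Rad50 kept the call under 7 of 13 alternatives. Of the protein-coding genes with no shared exon bases, 93.2% had a lower mean TPM than Rad50.

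Il4 and Rad50, both with no shared exon bases, parted in replicate 4. The log2 CPM of each replicate was set against the mean of the other 3. For Il4 the deviations were 0.30, 0.01, -0.41 and 0.10 in replicates 1 to 4. For Rad50 they were 2.01, 0.35, 0.40 and -2.76. Rad50 was thus low in replicate 4 and high in replicate 1, while Il4 stayed within 0.41 of the other libraries in each replicate. The mean set against replicate 1 includes the low replicate 4, which adds to the 2.01 of Rad50.

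Replicate 4 stood apart across the genes of that kind. Of 2115 genes with no shared exon bases and at least 10 counts in each other library, 55.9% lay more than 1 log2 unit lower in replicate 4, and their median deviation was -1.24. The filter sets no limit in replicate 4 itself, which favours low values there. With the same filter on the other libraries of replicates 1, 2 and 3, 1.51% of 1322, 1.66% of 1326 and 7.27% of 1306 such genes lay that far lower. Those filters ask for at least 10 counts in replicate 4, so they leave out genes low there and the sets are not like the 2115. Rad50 was among the lower ones in replicate 4, with 14.8% of the 2115 genes at or below it, and Il4 was not, with 16.0% of them at or above it. Among 3150 genes sharing 50 exon bases or more, 9.52% fell short by more than 1 in replicate 4, the median was -0.06, and 34.2% were at or above Il4. Gm17334, which shares exon bases, deviated by 0.19 in replicate 4. With effective library sizes from TMM, which raise every gene in replicate 4 by 0.217, Rad50 was at -2.54 and Il4 at 0.31. The T cell marker sum was lowest in replicate 4 as well, at 38 counts, and what part that has in the value of Rad50 was not tested. Of these markers, Cd3d, Cd3g, Cd4 and Trac share no exon bases and are themselves among the 2115 genes whose median was -1.24. Genes that share exon bases held 92.9%, 92.2%, 94.4% and 95.9% of the counts in replicates 1 to 4. In these bulk RNA counts, fewer cells of a kind, less RNA per cell and a wide shift of genes without shared exon bases were not told apart, and none was tested.

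**Figure D4:**
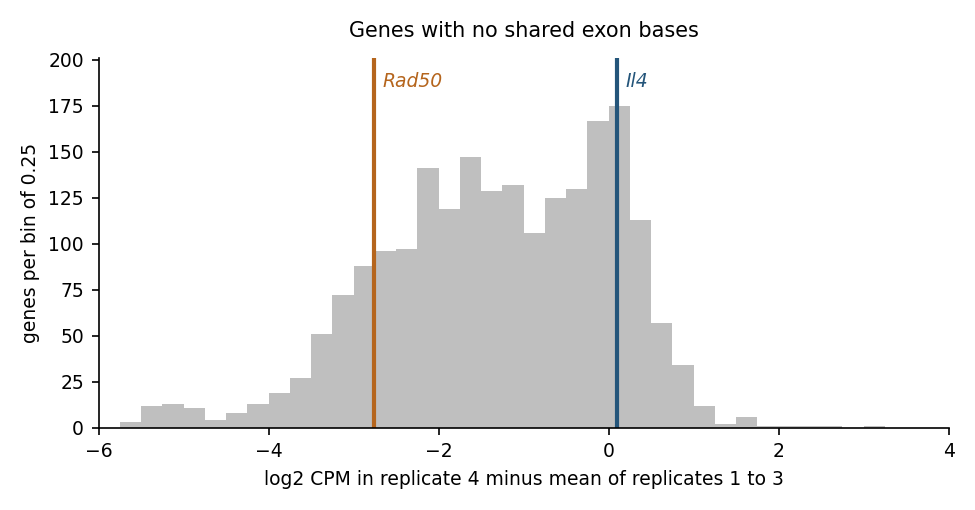
Distribution over 2115 genes with no shared exon bases of log2 CPM in replicate 4 minus the mean of replicates 1 to 3 (bins of 0.25; the vertical axis is the number of genes). The lines mark Rad50 at -2.76, in the lower tail, and Il4 at 0.10, to the right of the median of -1.24.

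Spread between the 4 replicates was tested with the edgeR quasi-likelihood fit, setting each gene's dispersion against the trend for its abundance. At an adjusted p under 0.05 edgeR called 0.0% of the 4190 genes that passed its filter on low counts, while 268 genes had an unadjusted p under 0.05, limma-trend called 0, and 15 were dispersion outliers in DESeq2. Of the members only Il4 passed the filter, with an edgeR adjusted p of 0.996, and Gm17334 had 0.987. A gene not called is not thereby shown to be even between the replicates. Rad50 was removed for its 5 counts in replicate 4. With no filter beyond a count above 0, it had an unadjusted p of 0.0028 and an adjusted p of 0.110 in edgeR, and 345 of 17203 genes were called. With the prior degrees of freedom made infinite, edgeR called 519 to 558 of the 4190 genes, and neither Il4 nor Gm17334 was among them.

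Genes whose deviations over the 4 libraries were most like those of Il4 and of Rad50 were sought among 6081 genes with a mean count of at least 10. For Il4 they were Ddx28, an RNA helicase gene, with a root mean square difference of 0.00767 on the log2 scale, Ptdss1, a phosphatidylserine synthase gene, with 0.0157, and Lrrc59 with 0.0169. Ddx28 had 104, 91, 108 and 111 counts, and all 3 genes share exon bases with the other strand. For Rad50 they were Kcnn4, a calcium-activated potassium channel gene, with 0.0963, Smarcd2, a chromatin remodelling subunit gene, with 0.112, and Gatad2a with 0.199. Kcnn4 had 21, 9, 13 and 2 counts, and none of these 3 genes shares exon bases. These likenesses are descriptions over 4 libraries.

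Kif3a, which encodes a motor subunit of kinesin-2, the motor of cilia and intracellular transport, had few counts in each library. It had 1, 5, 5 and 3 counts in replicates 1 to 4, or 0.684 ± 0.377 TPM (SD, n = 4). Replicate 1 was lowest and replicate 2 highest in TPM. The level was -0.64 ± 0.54 from 1 TPM on the log2 scale (SE; limma adjusted p = 0.322) and was not called. Since 3 counts are 0.504 to 0.679 TPM for this gene, its libraries lie near the limit that a count of 0 allows.

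Within 200 kb on each side of the locus lay 32 genes, 14 on the plus and 18 on the minus strand, and 18 of them had 0 counts in every library. Only Il4, Rad50 and Gm17334 reached a mean count of 10. The members together had 84, 63, 74 and 42 counts in replicates 1 to 4, and the whole window 238, 216, 241 and 217. The members' sum was lowest in replicate 4, where Rad50 was lowest, while the window's sum there was close to that of replicate 2.

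Partners of the cytokine genes in signalling and control were described from a list of 26 genes of the Th2 cytokine pathway. In it 8 genes were called above 1 TPM, 3 below and 7 not at all, and 8 had 0 counts and were not tested. Of all genes tested, each with a count in at least 1 library, 32.1% were called above and 26.6% below. The 8 genes with 0 counts have no counterpart there, so a share of all 26 is not set against those. The median log2(TPM + 0.1) was -0.47 over all 26 genes, zeros included. It was -0.21 over all genes tested, which is not a like set. The 8 above were Il4 itself, Junb, Irf4, Batf, Gata3, Stat6, Il2rg and Jak1, of which Gata3, Stat6 and Jak1 share 155, 40 and 4 exon bases with the other strand. The call of Jak1 was lost without replicate 1 (limma adjusted p = 0.0613), 2 (0.0828) or 3 (0.0642). Junb, an AP-1 subunit gene, had 58.5 ± 11.0 TPM and shares 173 exon bases, Irf4, an activation-induced factor of the IRF family, had 15.9 ± 8.15 TPM, and Batf, which pairs with it on DNA, had 8.61 ± 4.13 TPM (SD, n = 4 each). The 3 below were Il13, Il5 and Il10, with 1 count each. Receptor genes Il13ra1, Il13ra2, Il5ra and Csf2rb and cytokine genes Csf2, Il9 and Il31 had 0 counts, as did the factor gene Maf. Of these, Maf, Csf2 and Il31 share 440, 96 and 48 exon bases with the other strand, and a count of 0 is not read as absence.

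Relatives of the neighbouring genes gave lists of their own, too short to set apart from the 32.1% above and 26.6% below among all genes tested. In the IRF family, with Irf1 among 9 genes, 4 were called above 1 TPM and 2 below, with a median of -0.05. Irf5 had the highest value, 648 ± 72.0 TPM (SD, n = 4), and shares 411 exon bases with the other strand; Irf7 had 2.67 and Irf3 2.37 TPM, with 45 and 88 shared exon bases. Without replicate 1 the calls of Irf7 (limma adjusted p = 0.0763) and Irf3 (0.157) were lost. Of the 2 below, Irf8 lost its call without any 1 replicate (0.0686 to 0.153) and Irf9 without replicate 3 (0.101) or 4 (0.0612). Of the 4 genes of the break-sensing complex and its kinase ATM, Rad50 and Nbn were called above, with Nbn at 5.22 ± 1.72 TPM, and Mre11a at 1.26 and Atm at 0.50 TPM were not called. Nbn had 24, 15, 20 and 14 counts in replicates 1 to 4, and Atm had 8, 8, 13 and 0. Of 5 kinesin-2 genes only Kif3c was called above, at 95.9 ± 17.9 TPM, and it shares 3016 exon bases with the other strand; Kif3b had 0.979 and Kifap3 0.423 TPM, and Kif17 had 0 counts.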

How the data were processed

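RNA of 4 Th2 libraries was measured as fragment counts per gene. Fragments were counted over exons by the authors with featureCounts 1.4.6-p4 on GENCODE M13 (mm10), for pairs with both ends aligned and strand option 1, per the file headers; the aligner's version is not given in the sources used here. The deposited values are raw counts. Samples were grouped by the labelled cell type and numbered by the labelled biological replicate, and the files of explanatory text were not used.

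The members, the gene lists and the tests were chosen with earlier results of these data known. Symbols were matched for 50376 of 50600 IDs through a table of gene names, and gene types were taken from GENCODE M21. Exons were merged per gene and bases shared with exons on the other strand were summed. TPM was computed from counts and exon length. Levels were tested with limma 3.58.1 (trend, robust) and spread with edgeR 4.0.16 (TMM, filterByExpr), both with Benjamini-Hochberg adjustment at 0.05. Other software was R 4.3.3, DESeq2 1.42.0, scipy 1.17.1 and Python 3.11.15. A filter on low counts was applied only where stated, and deviations used a prior count of 0.5. Depth was 1804217 to 2711948 counts, and 3 counts, the limit for a count of 0, were 1.11 to 1.66 CPM.

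Several versions of the edgeR spread test were run on these counts and on simulated ones before 1 was settled on, and its counts of calls were already known. In simulated counts of 4909 genes that shared 1 dispersion, with 200 abundant genes changed 4-fold in 1 library, the version used here found 84% of them and 0 of the others, versions without a robust prior and with its degrees of freedom estimated found 0, and versions with infinite prior degrees of freedom, robust or not, found 94% to 94.5%, with 5 to 7 unchanged genes called. In the real counts, 55.9% of 2115 genes with no shared exon bases lay more than 1 log2 unit lower in replicate 4. The simulation had no such wide shift, so its percentages do not measure what the test could find here.

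Named genes were the members, features sharing exon bases with them, genes of the window with a mean count of at least 10, up to 4 genes of each list by TPM, and the 3 genes most like each member with that mean count; other genes named were chosen after their values were seen. Floors, pseudocounts, scalings, filters and left-out replicates were varied as described at the end.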

Additional observations from a re-analysis of the deposited data

Results flagged for a closer look

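In 5 of 13 sets of 4 values, 1 library stood far from the other 3 by a gap test. That test marks about 1 set in 20 by chance, a rate that does not apply to 4 of the 5, since a single count beside zeros always passes it and the differences restate those counts. Il13 had 0.542 CPM in replicate 2 and 0 in the others, and Il5 had 0.461 CPM in replicate 4 and 0 in the others, each a single count. The same single counts set the low values of Il4 minus Il13, at 4.17 in replicate 2, and of Il4 minus Il5, at 4.74 in replicate 4. Gm17334 had 56.4 CPM in replicate 3 beside 78.2, 75.8 and 79.3 in replicates 1, 2 and 4; replicate 3 had the most counts in all, 2711948, and Il4 and Irf1 were also lowest there in CPM. The part of library size in this was not tested.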

How the results depend on the processing

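The number of genes called below 1 TPM, 4571, was 13 with a mean count of at least 10, 39383 with all genes, 7779 against 2 TPM, 2554 against 0.5 TPM and 2410 to 2928 with 1 replicate left out. The edgeR spread test, with 0 calls, called 345 genes with no filter, 8 with a mean CPM of at least 1 and 0 to 20 with 1 replicate left out, the 20 without replicate 4; DESeq2 gave 15 outliers. Versions of it added after the data had been seen called 519 with an infinite prior, 558 when also without a robust prior, 536 with bias-adjusted deviance too, and 0 without a robust prior alone. Genes near the locus with a mean count of at least 10 numbered 6 within 500 kb. The share lower in replicate 4 was 53.1% with at least 20 counts and 50.4% with TMM sizes. Uncalled levels changed sign: Gm12214 to -0.22 in CPM, Kif3a to 0.23 against 0.5 TPM and 0.46 in CPM, and Irf1 to 0.69 against 0.5 TPM and 1.12 in CPM, with a range of -0.39 to 0.084 when 1 replicate was left out. The level of Rad50 lost its call with a pseudocount of 0.01 (limma adjusted p = 0.052), against 2 TPM (0.398) and without trend or robust variance (0.0936), and adjusted p over its alternatives ran from 4.8e-21 to 0.398. Kif3a was called below 2 TPM, at -1.58 (limma adjusted p = 0.028). The mean differences between genes kept their sign under every alternative run, but Rad50 minus Il4 was -0.14 in CPM (exact sign-flip p = 1), with no direction left over the libraries. Il5 minus Gm12214 with zeros at 3 counts was set by exon length in replicate 1, where both had 0. Sizes of the pairs with zeros moved with the pseudocount: Il4 minus Il13 was 3.72 with a pseudocount of 1 and 8.93 with 0.01. The causes were not tested. Limits are the depth, with 4 of the 7 members under 20 counts over 4 libraries, the strand of the counts, the lack of a control, and exact tests that cannot go below 0.125. Genes were paired within libraries, but samples could not be paired between groups because the series has 1 group.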
